A study of Mus musculus and Homo sapiens with 4 samples.

Results

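Rn45s is the symbol for a copy of the gene for the large pre-ribosomal RNA in the mouse reference genome. Miz1 peaks there were called in mouse neuronal progenitor cells at chr17:39979921-39985784 of build mm9, an interval of 5864 bp. Its members were chosen by position: each peak of the mouse list that overlaps the interval by at least 1 bp. The interval starts at the first base of the first of these peaks and ends at the last base of the last, so the peaks themselves set its ends. There were 6 such peaks, out of 261 in the mouse list and 3172 in both lists of the study. The interval itself was picked as the place of Rn45s after an earlier look at the peaks of the same list. Number, width, spacing and score of the members are therefore descriptions, with no test.

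The pre-ribosomal transcript is the long precursor from which one RNA of the small ribosomal subunit and a pair of RNAs of the large subunit are cut, and the transcribed spacers between them are discarded. RNA polymerase I makes it in the nucleolus from rDNA, repeated in tandem arrays on several chromosomes. Reference assemblies hold few of these repeats, so reads from many near-identical units can align to the same stored copy. Miz1 is a zinc-finger transcription factor, partner of the oncoprotein MYC, that binds mainly at promoters read by RNA polymerase II.

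The study holds Miz1 chromatin immunoprecipitation libraries and input DNA libraries from 2 kinds of cell, and 1 peak list per Miz1 library was used here. Whether the peaks were called against the input is not stated in what was used here. The mouse cells came from embryonic brain at E13.5 and were grown as neurospheres, and antibody H190 was used on them. The labels give no strain, genotype or treatment for them, and a peak list cannot show whether they express progenitor markers. The other list is of human origin, from the line the labels call MDA-MD-231, with antibody G18. All cells were fixed with 1% formaldehyde, and library DNA of about 200 bp was cut from a gel and amplified over 18 PCR cycles. Each list rests on 1 library, so no spread between replicates stands beside any value. Read depth is unknown for these lists, and the input libraries were not analysed here.

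The peaks at Rn45s are numbered 1 to 6 below in the order of their coordinates, all on chromosome 17. Each carries the authors' own score, taken as the value their peak caller wrote. Its scale is not defined in the list. The value 3100 is shared by 35 mouse peaks, and 4 others score above it, up to 3189.51. Peak 1 spanned bases 39979921 to 39983341, a width of 3421 bp, with a score of 3100. Peak 2 spanned bases 39983392 to 39983751, a width of 360 bp, with a score of 728.62. The step from peak 1 to peak 2 was a fall from 3100 to a middling score across a gap of 50 bp. Peak 3 spanned bases 39983802 to 39983892, a width of 91 bp, with a score of 168.22. Peak 4 spanned bases 39983955 to 39984049, a width of 95 bp, with a score of 207.16. These were the weakest and narrowest peaks of the interval, and they lay side by side. Peak 5 spanned bases 39984110 to 39984328, a width of 219 bp, with a score of 599.97. Peak 6 spanned bases 39984427 to 39985784, a width of 1358 bp, with a score of 3100. Scores thus stood at 3100 at both ends of the interval. They were lowest at peaks 3 and 4, which lay 3881 to 4128 bp from its first base. Apart from the tie of peaks 1 and 6, the order of the peaks by score was the same as their order by width.

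**Figure D1:**
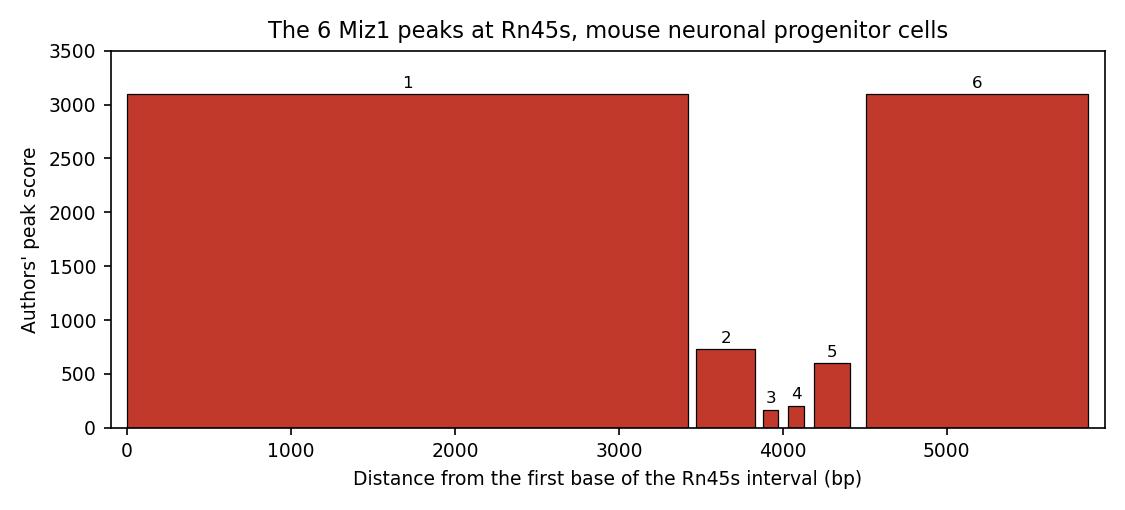
Map of the peaks at Rn45s in mouse neuronal progenitor cells: the horizontal axis is the distance in bp from the first base of the interval, and each bar is 1 peak, as wide as the peak and as high as the authors' score. Peaks 1 and 6 stand at 3100, and peaks 2 to 5 between them score 168.22 to 728.62.

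Peaks covered 5544 of the 5864 bp, or 94.5% of the interval, and 320 bp lay in 5 gaps. Because the interval is bounded by its own peaks, only bases in the gaps between them could be uncovered, and the value is not the cover of the annotated gene. Peak 1 alone took up 58.3% of the interval and peak 6 took up 23.2%. Together they held 4779 bp, which was 86.2% of the bases under peaks at Rn45s. The gaps were 50 bp between peaks 1 and 2, 50 bp between peaks 2 and 3, and 62 bp between peaks 3 and 4. They were 60 bp between peaks 4 and 5 and 98 bp between peaks 5 and 6. The stretch between peaks 1 and 6, which holds all 5 gaps by definition, was 1085 bp long (bases 39983342 to 39984426), 18.5% of the interval. It begins 3421 bp from the first base of the interval. In that stretch 765 bp, or 70.5%, were under peaks 2 to 5, and the rest of the interval was peaks 1 and 6. Every gap was narrower than the 200 bp cut from the gel.

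Annotation of mm9 was not used here, so the ends, strand and mature RNA parts of Rn45s were not set against the peaks. The name of the interval comes from the way it was chosen. Which part of the ribosomal transcript the broken stretch covers was not examined. RefSeq tables of another build, GRCm38.p6, were used for names alone, and 0 of their gene entries and 0 of their promoter entries matched the symbol Rn45s. In that build's order of genes on chromosome 17, Rn18s-rs5, a pseudogene related to the small-subunit ribosomal RNA, lies between Esp15 on one side and AY036118, a long non-coding RNA, on the other. Esp16 and Esp38 are the next genes outward. The position of Rn18s-rs5 was not matched to the mm9 interval, so these genes are not shown to be neighbours of the peaks. The Esp genes encode exocrine gland-secreted peptides.

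No further peak was found near the interval. The nearest at lower coordinates, at bases 35078346 to 35078487, was 4.9 Mb away, with a width of 142 bp and a score of 110.37. The nearest at higher coordinates, at bases 46383941 to 46384145, was 6.4 Mb away, with a width of 205 bp and a score of 114.21. Both flanking peaks scored just above the lowest score of the list, and neither resembles peaks 1 and 6 in width. Chromosome 17 carried 24 peaks, so the interval supplied 25.0% of them and 58.1% of the chromosome's covered bases. The other 18 peaks of the chromosome were 132 to 385 bp wide, with a median of 217 bp, and 2 of them scored 3100 or more.

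Peaks 1 and 6 were the widest of the mouse list. Peak 1 was 14.3 times and peak 6 was 5.68 times as wide as the median of the 255 other peaks, 239 bp. Of the 6 members 2 were wider than 500 bp, as were 4 of all 261 peaks, or 1.53%. The members are 2 of those 4. The widest peak elsewhere, on chromosome 11 at bases 23565789 to 23566459, measured 671 bp and also scored 3100. Peak 1 was 5.1 times and peak 6 was 2.02 times as wide as that one. After it came peaks of 562 bp on chromosome X (bases 96132665 to 96133226, score 1506.67) and 487 bp on chromosome 10 (bases 98569332 to 98569818, score 1554.89). The next were 466 bp on chromosome 1 (bases 164500440 to 164500905, score 3100) and 459 bp on chromosome 10 (bases 33739284 to 33739742, score 2432.57). No peak of the list had a width between 671 bp and the 1358 bp of peak 6.

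The same interval held some of the narrowest peaks of the list. Peaks 3 and 4 were 2 of the 8 peaks narrower than 100 bp, while 3.07% of all peaks were that narrow. Of the 255 other peaks, 249 were wider than peak 3 and 249 were wider than peak 4. The widest member was 37.6 times as wide as the narrowest. Peak 5, at 219 bp, was near the middle of the list, with 101 other peaks narrower and 152 wider. Peak 2 was wider than 89.8% of the others. In width the members therefore spread over nearly the whole range of the list and beyond its upper end, with 3 above and 3 below its median.

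Scores at Rn45s were not uniformly high. Peaks 1 and 6 scored 3100, as did 33 of the other peaks, and 4 others scored higher. That is 2 of 6 members, beside 14.9% of all peaks in the list at or above 3100. The tie gives no order among the peaks that share it. The 37 other peaks at or above 3100 were 256 to 671 bp wide with a median of 345 bp, all narrower than peaks 1 and 6. Where scores tie at 3100, they cannot show whether peaks differ in strength. Peaks 2 and 5, at 728.62 and 599.97, scored above the list median of 494.48, higher than 58.4% and 56.1% of the others. Peaks 3 and 4 scored below it, higher than 22.4% and 29.0% of the others.

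Because wider peaks tended to score higher in this list, with exceptions, each member was also set beside the other peaks within 20% of its width. Peak 2 scored lower than most of them: 71 of 80 such peaks scored higher than its 728.62, and their median was 2733.77. Peak 5 scored higher than most: 84 of 100 scored lower than its 599.97, with a median of 264.185. Peak 4, at 207.16, was above all 4 peaks of like width, which reached 192.79 at most. Peak 3, at 168.22, was above 4 of 6, whose median was 114.02. Peaks 1 and 6 had 0 peaks of like width in the list to be compared with. At a matched width, then, peak 2 was weak for the list and peaks 3 to 5 were not.

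**Figure D2:**
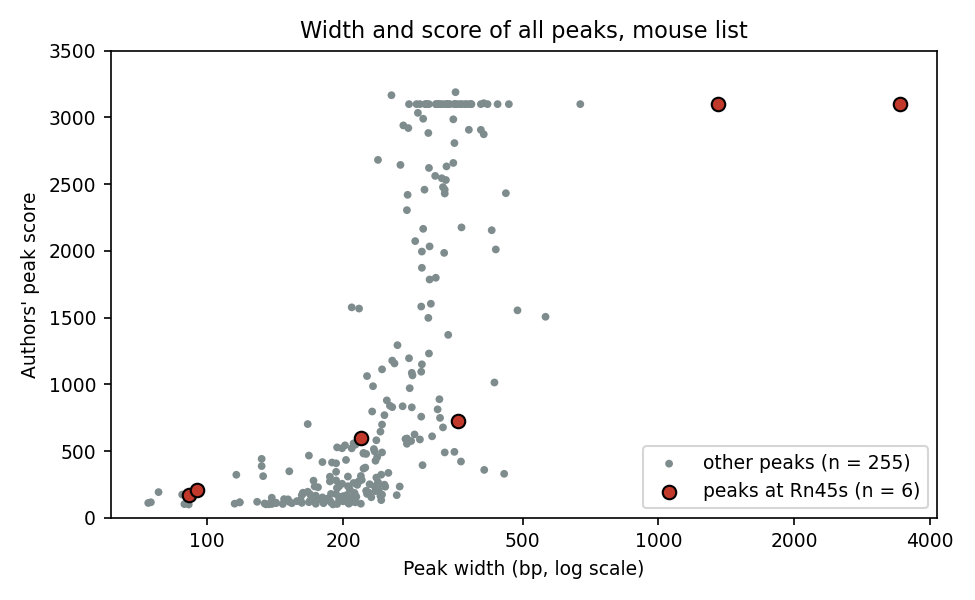
Width in bp (horizontal, log scale) and the authors' score (vertical) of each peak in the mouse list, with the 6 peaks at Rn45s in red and the 255 others in grey. Peaks 1 and 6, at 3421 and 1358 bp, lie to the right of every other peak, and the 4 narrower members lie at scores of 728.62 or less.

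The interval weighed more in summed bases than in number of peaks. Its 6 peaks were 2.3% of the list but 7.87% of the 70440 bp under mouse peaks, and peak 1 alone was 4.86%. Of the 18002 bp under peaks scoring 3100 or more, peaks 1 and 6 made up 26.5%, though they were 2 of 39 such peaks, or 5.13%. With the members left out, the mean width of the list went from 269.9 to 254.5 bp and its SD from 226 to 89.1 bp, while the median of 239 bp did not move.

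Neighbouring peaks this close were rare elsewhere in the mouse list. Each of the 6 members had another peak less than 1 kb away, as had 12 of all 261 peaks, or 4.6%; the members are 6 of those 12. Outside the interval 3 pairs were less than 1 kb apart. They lay on chromosome 5 (bases 147072515 to 147072938, gap of 19 bp), elsewhere on chromosome 17 (bases 6021499 to 6021848, gap of 51 bp) and on chromosome 1 (bases 69733679 to 69734186, gap of 132 bp). In each the peaks were 132 to 244 bp wide, with scores of 154.23 to 702.54. Gaps under 100 bp thus occurred beside ordinary narrow peaks too, but in pairs and not in a run. Among gaps under 10 kb, the 5 at Rn45s had a median of 60 bp and the 8 elsewhere in the mouse list a median of 1058 bp. The human list, from other cells and another antibody, had 278 such gaps with a median of 1741 bp, and 36 of them were under 100 bp.

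**Figure D3:**
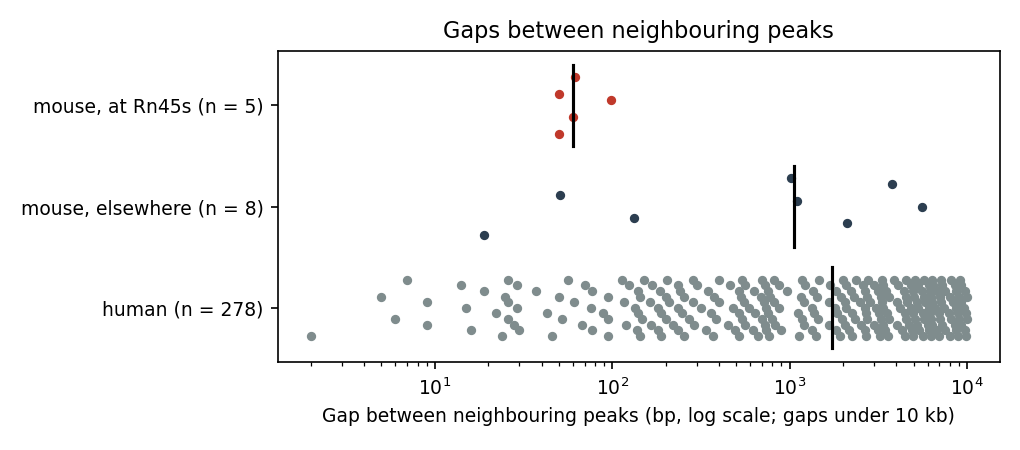
Gaps in bp between neighbouring peaks (log scale, gaps under 10 kb), 1 point per gap, with a black line at each median: 5 gaps at Rn45s, 8 elsewhere in the mouse list and 278 in the human list. Vertical scatter within a row has no meaning; the gaps at Rn45s all fall between 50 and 98 bp.

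A run was defined as 4 or more peaks in a row, each less than 1 kb from the next. Rn45s was the only run in the mouse list, and the human list held 4, set beside it here as descriptions because species, antibody and cells differ. The human run on chromosome 2 (hg19, bases 1346113 to 1350074) was nearest to it in continuity. Its 4 peaks covered 92.0% of 3962 bp, with gaps of 9 to 166 bp and scores of 121.77 to 1391.33. Its median score was 631.045, beside 664.295 at Rn45s, but none of its peaks reached 3100. The human run on chromosome 1 (bases 16268424 to 16275040) was nearest in length. Its 8 peaks covered 64.5% of 6617 bp, with gaps of 116 to 873 bp, and 5 of them scored 3100. Its lowest score was 1993.64 and its median 3100, both above those of Rn45s. The human runs on chromosome 17 (bases 18964631 to 18967980 and 19090733 to 19094124) were shorter, covered for 68.5% and 59.8%, with the highest scores at 339.42 and 411.07. The Rn45s interval was thus near the run on chromosome 2 in cover. Scores in the mouse and human lists were called separately, with the scale undefined and the depth unknown. A like or higher score in the other list therefore does not show a like or stronger signal.

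The share of covered bases held by the widest peak of a run depends in part on its number of peaks. Peak 1 held 61.7% at Rn45s, a run of 6 peaks. The widest peak held 52.1% in the human run on chromosome 2 (4 peaks) and 27.4% in that on chromosome 1 (8 peaks). It held 37.3% and 36.1% in those on chromosome 17 (4 peaks each). Relative to its own list, peak 1 was 14.3 times the median width, while the widest peak of the 4 human runs was 5.49 times and the widest of the whole human list 8.56 times the human median of 346 bp.

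**Figure D4:**
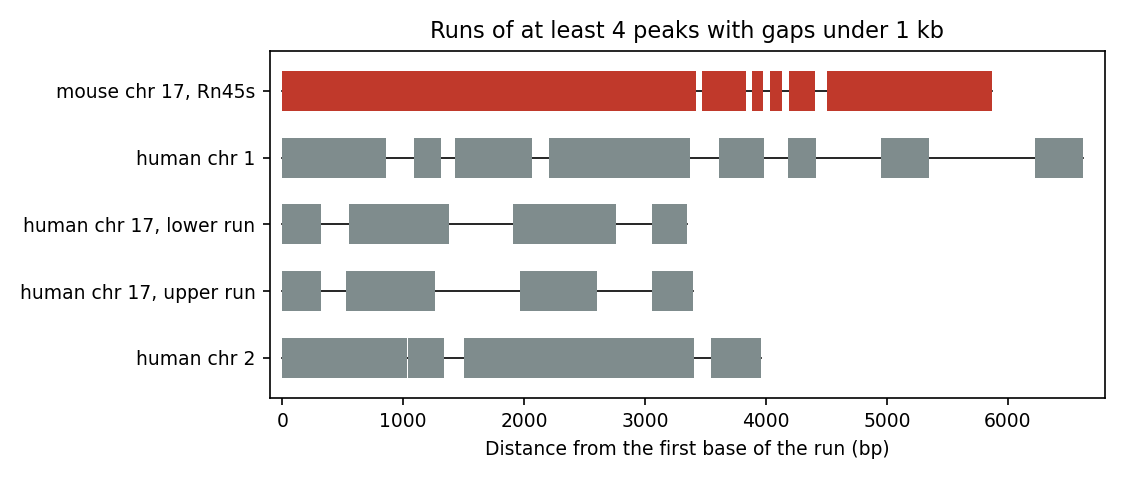
Peaks (boxes) and gaps (thin lines) of the runs (4 or more peaks, each less than 1 kb from the next), drawn to 1 scale by distance in bp from the first base of each run, with Rn45s in red and the human runs in grey. The Rn45s interval is covered for 94.5%, with its gaps 3421 to 4505 bp from the first base. The human run on chromosome 1 is covered for 64.5%.

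Both lists held 0 peaks on unplaced contigs. Whether reads were aligned to such contigs is not stated in what was used here. Any stored rDNA sequence outside the assembled chromosomes therefore gave no value for comparison. Signal from many rDNA repeats aligned to this copy and binding of Miz1 at rDNA cannot be told apart from a list of peaks. The share of reads aligned to more than 1 place, the height of the signal along the interval and the level in the input library were not examined.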

How the data were processed

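Miz1 ChIP-seq was used from mouse neuronal progenitor cells and the human line labelled MDA-MD-231, with 1 library each. Bowtie 0.12.7 and MACS 1.4.2, and the builds mm9 and hg19, are named in the submitters' processing notes; tool settings, the treatment of reads aligning to several places, the control in peak calling and the depth are not stated in what was used here. The deposited lists give position, name and the authors' score per peak, called per library; the score is not defined there. Starts are printed counting from 1.

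Peaks overlapping the Rn45s interval by at least 1 bp were taken as members. Width, gap, cover, rank and share were computed with Python 3.11.15 and pandas 2.3.3, and the functions were tested on a simulated list. No test was made, since there is 1 library and the members and lists were chosen with earlier results of these data known. Named peaks were all members, the nearest on either side, the 5 widest others and the runs of close peaks; the close pairs elsewhere were named after their values were seen. Alternatives were other overlap rules, score minimums, merging and comparison sets.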

Additional observations from a re-analysis of the deposited data

How the results depend on the processing

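Of 12 alternatives over 6 results, 6 left a count within 1.5 times of its value: 6 peaks at Rn45s, 3 of them wider and 4 of them higher in score than the median. The other 6 were labelled moved. Among these, the covers and the shares of covered bases also stayed within that factor, so the label does not mean a large change for them. For the number of peaks, a rule of 50% inside and an interval wider by 10 kb could not change the count, since the peaks set the ends of the interval and the nearest others are 4.9 and 6.4 Mb away. By construction, merging peaks less than 100 bp apart turned the 6 peaks into 1, and the share of covered bases in the mouse list went from 7.87% to 8.28%. With peaks at or above the median score alone, 4 peaks were left, cover was 91.4%, the median gap was 98 bp (gaps of 50, 358 and 98 bp, an alternative chosen after seeing the data) and the share of covered bases was 11.8%. Peaks scoring 3100 or more covered 81.5%. In the comparison by width, 4 members had peers and 3 scored above their median. These were peaks 3, 4 and 5, whereas peaks 1, 2, 5 and 6 scored above the median of the list. The 2 counts were close, but they rest on different numbers of members, and only peak 5 was in both sets. No paired analysis was possible because each group has 1 library, and none could be left out. Depth is unknown, so how it limits the calling of narrow gaps was not tested.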
